A study of Mus musculus with 7 samples.

Results

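The genes for the proteins of the cytosolic ribosome were followed in 7 RNA-seq libraries of mouse liver. Members were the protein-coding rows of the deposited gene table whose symbol is an Rpl, Rplp or Rps name followed by a number, with an optional a, l or x form. The rule found 82 of the 54532 listed genes, 51 with Rpl or Rplp names and 31 with Rps names. Of these, 76 are canonical ribosomal protein genes (46 of the large and 30 of the small subunit) and 6 are paralogues, namely Rpl3l, Rpl7l1, Rpl10l, Rpl22l1, Rpl39l and Rps27l. They lie on 19 chromosomes. The libraries came from livers of old C57BL/6 mice: 3 were from mice on a standard diet following supplementation with MDL-800, a small-molecule activator of the deacetylase SIRT6, and 4 were from controls on a standard diet alone. The comparison addresses what MDL-800 supplementation does to the liver transcriptome. Dose, duration, exact age and sex are not given in the labels, which also do not say that each library is a separate animal, so p-values measure only the spread between these libraries.

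The cytosolic ribosome joins a small subunit, which reads the mRNA, to a large subunit, which forms the peptide bonds, and each of its proteins is built into a subunit around ribosomal RNA. Mammalian ribosomal protein mRNAs begin with a terminal oligopyrimidine tract, a C followed by further pyrimidines at the 5′ end, through which mTORC1 and the RNA-binding protein LARP1 control their translation. In liver, ribosome production takes a large part of the cell's biosynthetic effort and answers to feeding and growth signals. Most ribosomal protein genes have processed pseudogenes, copies of the mRNA reinserted in the genome, so short reads can match more than 1 place.

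Reads recovered from the deposited FPKM values (fragments per kilobase, scaled for depth) summed to 18351761 to 19920469 in the MDL-800 libraries and to 17600066 to 19361269 in the control libraries. The members took 323226 to 405349 of these reads per library. The hepatocyte markers summed to 58143 to 59459 FPKM in MDL-800 livers and to 56502 to 84484 FPKM in control livers, and all 9 of them found in the table passed the minimum for testing given below. MDL-800 2 and control 1 held 3514 and 2173 reads of Y-linked genes and the other 5 libraries held 0. These were bulk samples, in which fewer cells of a type and less RNA per cell cannot be told apart.

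Ribosomal protein genes were among the abundant transcripts of these livers. Averaged over the 7 libraries, 78 of the 82 members reached 1 FPKM, the minimum for testing, and 71 reached 50 FPKM. The median of the 78 was 155 FPKM, against 5.31 FPKM over all 11394 genes that reached the minimum and 13.9 FPKM over 77 mitochondrial ribosomal protein genes. By mean level, 4 members lay under 1 FPKM, 2 from 1 to 10, 5 from 10 to 50, 18 from 50 to 100, 28 from 100 to 200, 22 from 200 to 500 and 3 at 500 or more. The members' sum was 14919, 15352 and 13689 FPKM in MDL-800 livers and 15663, 13409, 14592 and 16153 FPKM in control livers. As a share of all FPKM in the library this was 3.29%, 2.73% and 2.99% in MDL-800 livers and 2.73%, 3.20%, 2.71% and 3.004% in control livers. The shares of the groups overlapped, with a mean of 3.01% ± 0.280 (SD, n = 3) in MDL-800 livers and of 2.91% ± 0.235 (SD, n = 4) in control livers.

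The highest member was Rplp1, which encodes an acidic protein of the stalk that recruits elongation factors. It stood at 1244, 1351 and 1153 FPKM in MDL-800 livers and at 1303, 1248, 1517 and 1315 FPKM in control livers. Rpl36, a large subunit protein gene, followed at 759, 832 and 702 FPKM in MDL-800 livers and 800, 648, 580 and 901 FPKM in control livers. The lowest and the highest Rpl36 values were both in controls.

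Rps3a1, a small subunit protein gene, came next at 594, 594 and 529 FPKM in MDL-800 livers and 604, 489, 637 and 597 FPKM in control livers. Rps15, whose protein lies in the head of the small subunit, had 507, 505 and 466 FPKM in MDL-800 livers and 517, 435, 511 and 525 FPKM in control livers. Control 2 was the lowest library for both as deposited. Rps2, which shapes the mRNA entry side of the small subunit, ranged from 442 to 488 FPKM in MDL-800 livers and from 380 to 489 FPKM in control livers. Rpl10, which joins the large subunit late and reaches towards the peptidyl transferase centre, had 342, 391.6 and 352 FPKM in MDL-800 livers and 434, 380, 384 and 408 FPKM in control livers. Rpl4, which lines the exit tunnel, ranged from 330 to 394 FPKM in MDL-800 livers and from 310 to 397 FPKM in control livers. Rpl19, a large subunit protein gene, ranged from 328 to 357 FPKM in MDL-800 livers and from 312 to 395 FPKM in control livers. None of these 8 genes separated the groups.

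The order of levels depends on gene length. The table's lengths equal the annotated exon bases of the gene in GENCODE M21 for most members. They differ for Rpl17 (775 against 1327 bases), Rps14, Rps18 and Rps28. Over the tested members the table's lengths were a median of 2.49 times the median length of the gene's protein-coding transcripts in GENCODE M21. They ran from 0.738 times that transcript length, for Rpl17, to 11.9 times. With that transcript length, an alternative chosen after the values were seen, the middle 50% of the tested members lay between 273 and 516 FPKM, against 85.1 and 229.8 FPKM with the table's lengths. Of the 8 highest members, 4 were among the 8 highest on both scales. Rps24, a small subunit protein gene, was listed at 60.9 FPKM and reached 726 FPKM on transcript length. Rps15a, another, was listed at 29.4 FPKM and reached 289 FPKM. The low levels of Rpl24, Rps10, Rpl13a and Rpl21 stayed low on both scales, at 1.89, 3.13, 34.1 and 38.0 FPKM on transcript length.

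**Figure D1:**
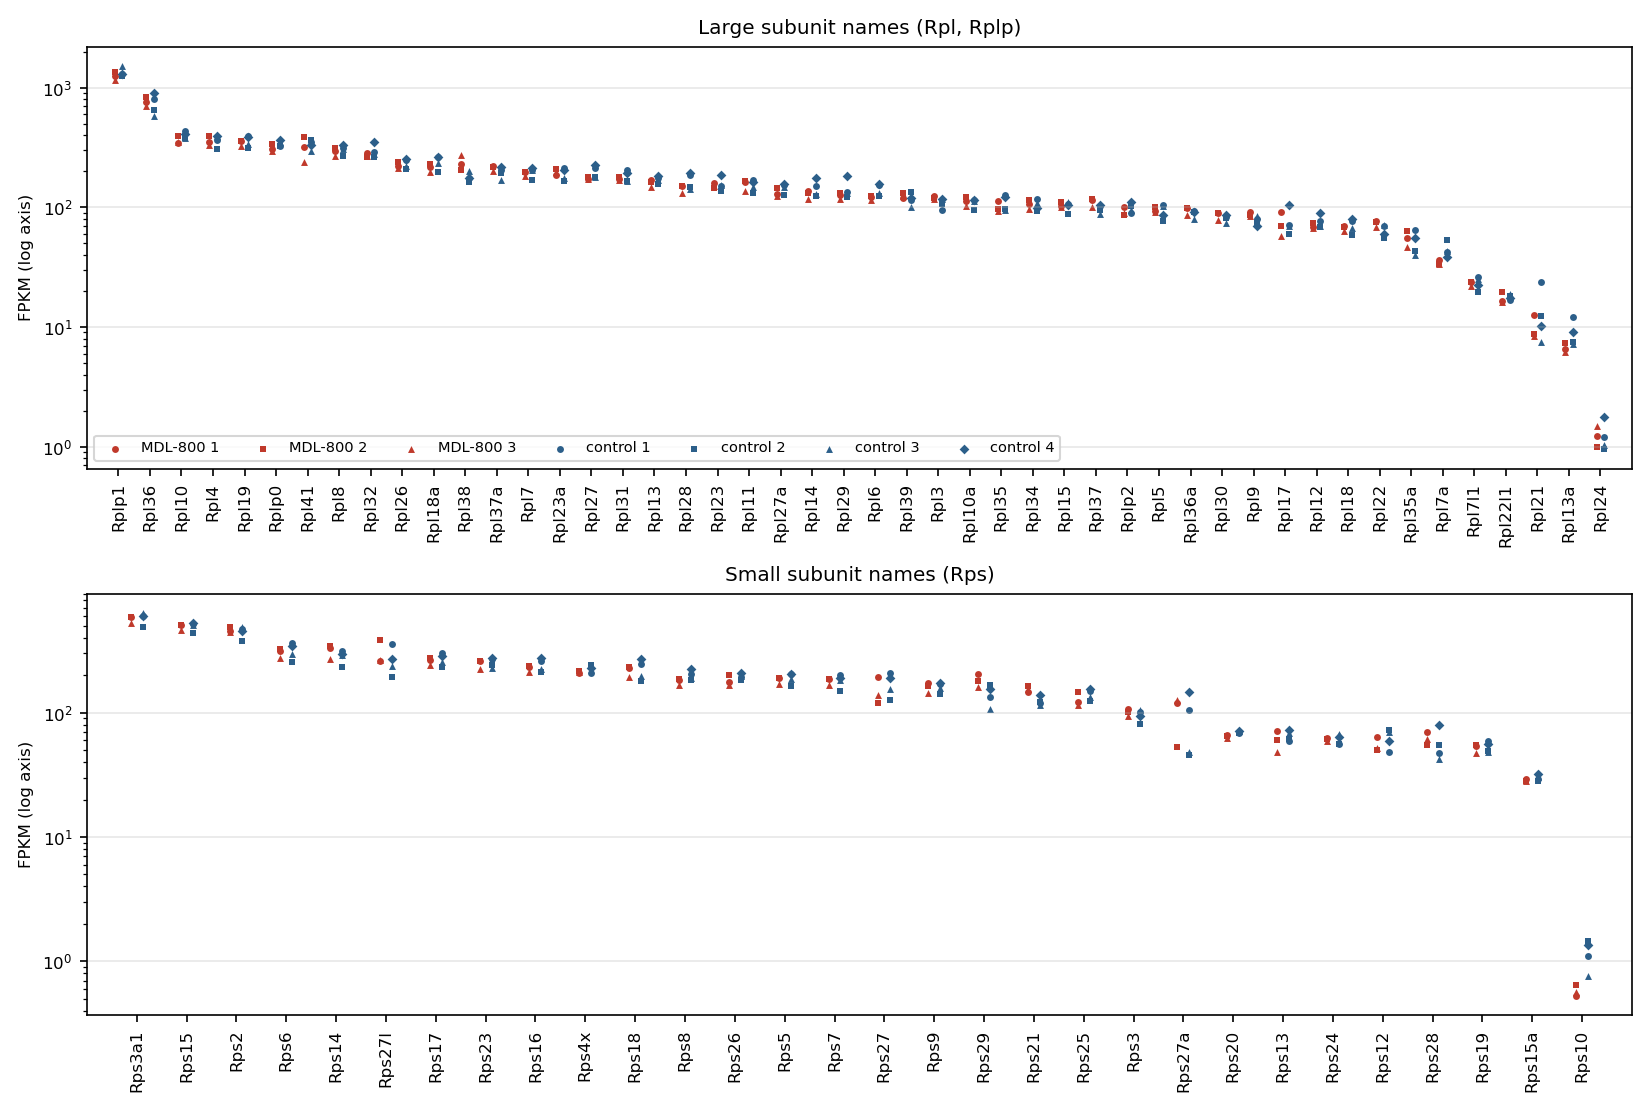
Deposited FPKM (log axis) of the ribosomal protein genes in each library, with large subunit names above and small subunit names below, ordered by mean; red marks are the 3 MDL-800 libraries and blue marks the 4 control libraries, and genes under 0.5 FPKM on average are not drawn. Most genes form a tight column with red and blue marks mixed, while Rps27a, Rpl21 and Rps10 are spread out.

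The levels varied little from library to library. The coefficient of variation (SD over mean of FPKM across the 7 libraries) had a median of 9.69% over the 78 tested members, against 19.1% over all tested genes and 14.1% over the mitochondrial ribosomal protein genes. Among genes at 50 FPKM or more it was 9.60% for 71 members and 20.4% for all 1108 such genes. With summed reads as the denominator those values were 9.93% and 17.1%. These figures describe 7 libraries and were not tested.

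Single genes were ranked by variation on the deposited scale only. With summed reads as the denominator the order differs, and Rps20, the least variable member as deposited, no longer varies least. Rps20, a small subunit protein gene, varied least on the deposited scale, with a coefficient of variation of 4.41%. It stood at 66.1, 64.9 and 63.0 FPKM in MDL-800 livers and at 68.9, 68.7, 70.7 and 70.8 FPKM in control livers, so every MDL-800 value was below every control value, although the log2 fold change was only -0.11 (SE 0.10). Rps15a followed at 4.79%, with 28.2 to 29.2 FPKM in MDL-800 livers and 28.2 to 32.0 FPKM in control livers. Rps4x, the X-linked gene of a small subunit protein, followed at 6.41%, with 208, 215 and 215 FPKM in MDL-800 livers and 209, 241, 240 and 229 FPKM in control livers.

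Among the 78 tested members, the largest coefficients were those of Rpl21 at 46.3%, Rps27a at 46.0% and Rpl13a at 25.7%. Rpl21, a large subunit protein gene, had 12.5, 8.82 and 8.45 FPKM in MDL-800 livers and 23.7, 12.4, 7.56 and 10.1 FPKM in control livers, with control 1 standing alone. Rpl13a, a large subunit protein gene whose product also silences inflammatory mRNAs in human monocytes, had 6.52, 7.31 and 6.17 FPKM in MDL-800 livers and 12.1, 7.46, 7.22 and 9.11 FPKM in control livers. Control 1 was the highest library there as well.

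Rps27a encodes a ubiquitin joined to a small subunit protein, which is cut apart after translation. It had 119, 52.6 and 126 FPKM in MDL-800 livers and 106, 45.8, 48.3 and 148 FPKM in control livers. A high and a low level were present in both groups: MDL-800 1, MDL-800 3, control 1 and control 4 lay between 106 and 148 FPKM, and MDL-800 2, control 2 and control 3 between 45.8 and 52.6 FPKM. The limma log2 fold change of 0.27 therefore had an SE of 0.51 (limma adjusted p = 0.96). Leaving out any 1 library moved it, from 0.02 without control 2 to 0.67 without MDL-800 2, and it was 0.82 in the libraries without Y-linked reads. The processed pseudogene Gm8430, which shares 43.5% of the 50-base windows of the Rps27a transcripts, ran the other way, at 15.98, 28.7 and 10.5 FPKM in MDL-800 livers and 26.5, 32.6, 51.7 and 13.0 FPKM in control livers. The depth-scaled reads of both together (FPKM times length in kilobases, summed) were 242, 117 and 254 in MDL-800 livers and 221, 106, 120 and 298 in control livers, so adding them left the levels apart.

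**Figure D2:**
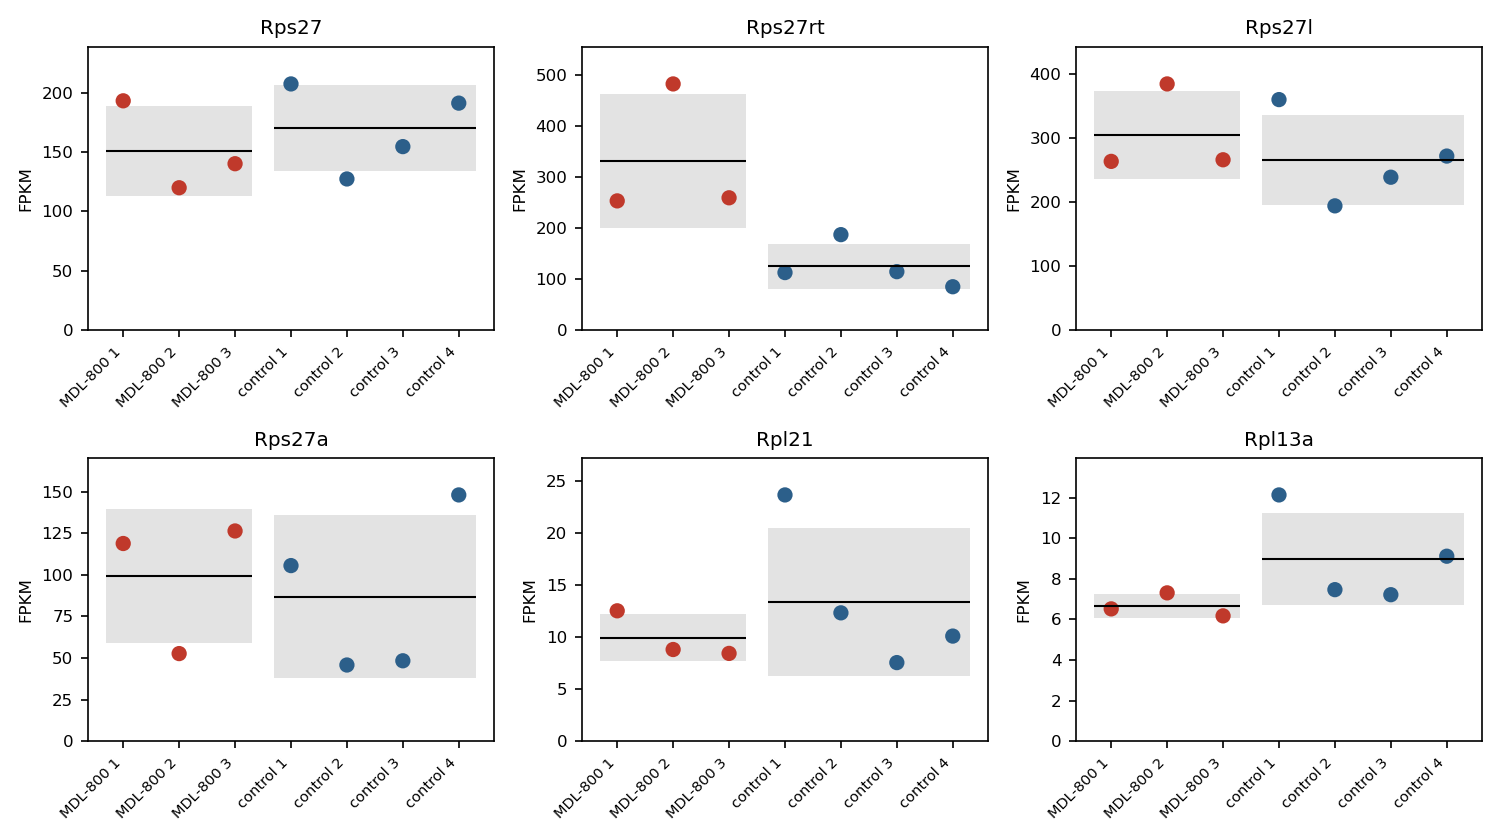
Deposited FPKM in each library of Rps27, its near-copy Rps27rt, the paralogue Rps27l, the ubiquitin fusion gene Rps27a, Rpl21 and Rpl13a; lines are group means and grey bands 1 SD either side, for 3 MDL-800 (red) and 4 control (blue) libraries. Rps27a takes 2 levels in both groups, Rps27rt is higher in all MDL-800 libraries, and control 1 stands above the other libraries for Rpl21 and Rpl13a.

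Between MDL-800 and control livers no member passed the test. By limma on log2(FPKM + 1), 0 of 78 members had an adjusted p under 0.05, as did 0% of all 11394 genes tested. Nominally, 3 of 78 members (3.85%) had an unadjusted p under 0.05, against 4.85% of all genes. Of these 3, 2 lay higher and 1 lower, against 3.23% and 1.62% of all genes. By limma voom on the recovered reads 0 of 78 members were called, as were 0 of 11394 genes. In that fit 2 of 78 members had an unadjusted p under 0.05, and the share over all genes was not taken. The median log2 fold change of the members was -0.04, against 0.02 for all genes, and 28 of 78 members (35.9%) lay above 0, against 54.2% of all genes. That split rests on the denominator: 39 of 78 members lay above 0, with a median of 0.00, when summed reads replaced it. Control 2 and MDL-800 3 also moved it, with 19 of 78 above 0 without control 2 and 43 of 78 without MDL-800 3.

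The fold changes were small. For 71 of 78 members (91.0%) the log2 fold change was within 0.25 of 0, which held for 74.2% of all genes. The 95% interval lay wholly within 0.5 of 0 for 53 members (67.9%), against 42.5% of all genes, and reached beyond 0.5 for the other 25. The missed threshold does not show that the members were equal in the groups, and the intervals give the sizes that these libraries leave possible. Large subunit names had a median of -0.05 (19 of 48 above 0) and small subunit names a median of -0.03 (9 of 30 above 0). Summed FPKM of large over small subunit names was 1.43, 1.49 and 1.47 in MDL-800 livers and 1.46, 1.56, 1.5002 and 1.49 in control livers, and the ranges overlapped.

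**Figure D3:**
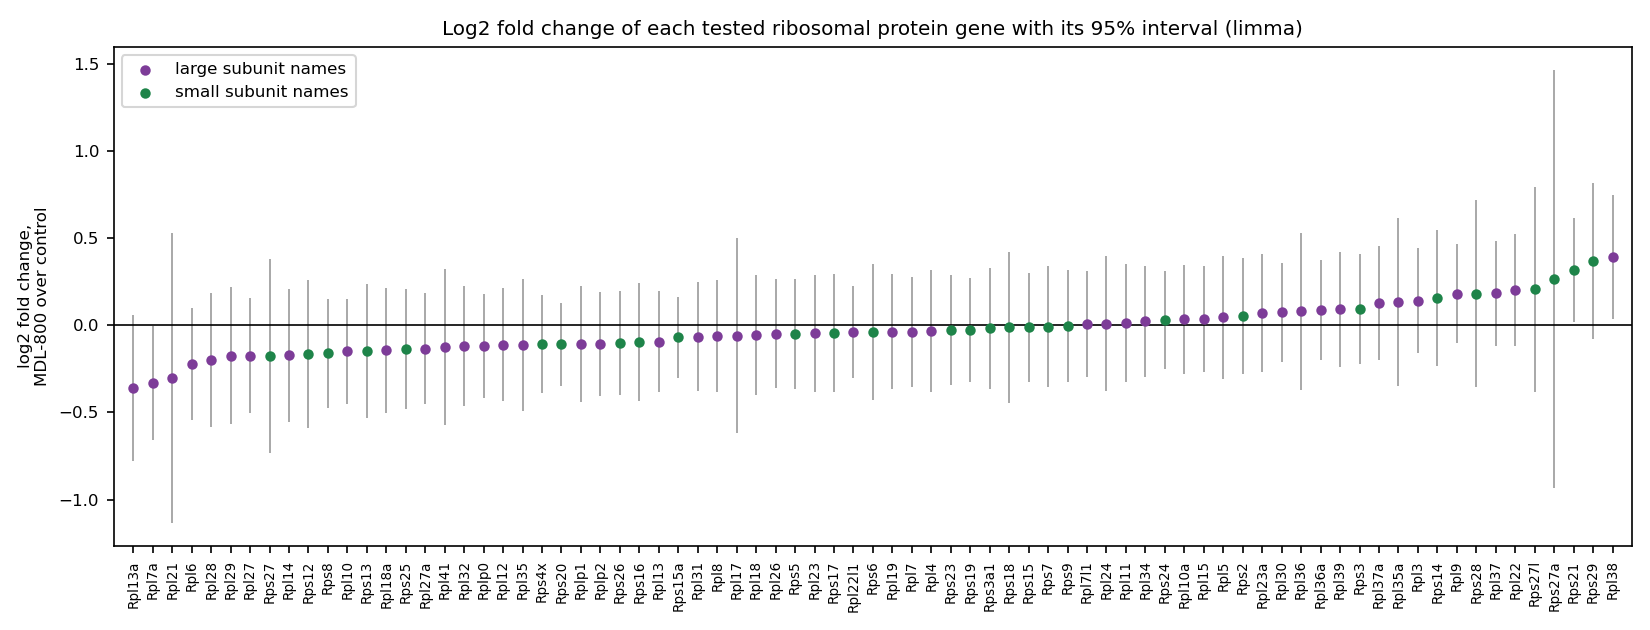
Log2 fold change of MDL-800 over control for the tested ribosomal protein genes reported here, with 95% intervals from limma; purple marks large subunit names and green marks small subunit names. Most points lie within 0.25 of 0, both colours run through the whole order, and only the intervals of Rpl7a, Rps21 and Rpl38 leave out 0.

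Rpl38 had the smallest p of the members. Its protein is a large subunit protein that mouse embryos need for translation of Hox mRNAs. It stood at 230.4, 206 and 275.1 FPKM in MDL-800 livers and at 177, 163, 201 and 177 FPKM in control livers. The groups did not overlap on this deposited scale. The log2 fold change was 0.39 (SE 0.15, 95% interval 0.04 to 0.75, limma adjusted p = 0.95). Rps21, a small subunit protein gene, had 146, 163 and 154 FPKM in MDL-800 livers and 120.0, 121, 115 and 139.9 FPKM in control livers, again without overlap. Its log2 fold change was 0.32 (SE 0.13, limma adjusted p = 0.95).

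Rpl7a, a large subunit protein gene, was the member with the smallest p in the lower direction. It had 36.7, 33.7 and 33.8 FPKM in MDL-800 livers and 42.5, 53.3, 42.8 and 38.2 FPKM in control livers, and its log2 fold change was -0.33 (SE 0.14, limma adjusted p = 0.95). Its groups did not overlap as deposited. On the deposited scale, 4 of 78 members (5.13%) had groups that did not overlap, Rpl38 and Rps21 above and Rps20 and Rpl7a below. This held for 6.45% of all genes (4.03% above and 2.42% below). The separation depends on the denominator. The ratio of a library's summed reads to its deposited denominator was 0.995 for control 2 and 1.28 for MDL-800 2. Dividing each value by its library's ratio makes the groups of Rpl38, Rps20 and Rpl7a overlap, while those of Rps21 stay apart. The counts were not repeated on that scale. A further member below the minimum for testing, Rps10, also lay lower in every MDL-800 library, at 0.526, 0.640 and 0.567 FPKM, against 1.10, 1.47, 0.764 and 1.35 FPKM in control livers, on 21 to 66 reads.

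Other members near the top of the order in the higher direction were Rps29, Rpl9 and Rpl22. Rps29, a small subunit protein gene, had 203, 179.5 and 159.7 FPKM in MDL-800 livers and 134, 167, 107 and 155 FPKM in control livers (log2 fold change 0.37, SE 0.19, adjusted p = 0.95, and 0.24 without control 3). Rpl9, a large subunit protein gene, had 92.2, 86.8 and 84.8 FPKM in MDL-800 livers and 80.5, 74.2, 85.5 and 70.5 FPKM in control livers (log2 fold change 0.18, SE 0.12). Both had 1 control library above the lowest MDL-800 library. Rpl22, whose RNA-binding protein represses its paralogue Rpl22l1 in mouse, had 76.8, 76.1 and 68.7 FPKM in MDL-800 livers and 70.1, 55.8, 71.7 and 59.8 FPKM in control livers (log2 fold change 0.20, SE 0.14).

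In the lower direction members near the top of the order included Rpl13a, Rpl6 and Rpl27. The log2 fold change of Rpl13a was -0.36 (SE 0.18, adjusted p = 0.95), on the values given above, and -0.22 without control 1. Rpl6, a large subunit protein gene, had 121, 126 and 115 FPKM in MDL-800 livers and 154, 123, 132 and 157 FPKM in control livers (log2 fold change -0.22, SE 0.14). Rpl27, another, had 173, 181 and 173 FPKM in MDL-800 livers and 215, 178, 179 and 226 FPKM in control livers (log2 fold change -0.17, SE 0.14, and -0.11 without control 4). Control 1 and control 4 were the high libraries for both.

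The 3 stalk genes lay close together in fold change. Rplp0, which anchors the stalk to the large subunit, had 309, 339 and 296 FPKM in MDL-800 livers and 326, 323, 352 and 364 FPKM in control livers, a log2 fold change of -0.12 (SE 0.13). Rplp1, on the values given above, had -0.11 (SE 0.14). Rplp2, the partner of Rplp1 in the stalk dimer, had 100.4, 87.2 and 90.3 FPKM in MDL-800 livers and 90.5, 102, 95.9 and 111 FPKM in control livers, a log2 fold change of -0.11 (SE 0.13). Without MDL-800 3 the value of Rplp0 was -0.07, Rplp1 was at -0.05 without MDL-800 3 or control 3, and Rplp2 was at -0.06 without MDL-800 2 or control 4 and at -0.16 without MDL-800 1. Rplp1 turned to 0.055 with quantile normalization.

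Many members had their highest or lowest value in the same library, and which library this was depended on the denominator. On the deposited scale 36 of 78 members were highest in control 4 and 17 in control 1, while 33 were lowest in control 2 and 25 in MDL-800 3. With summed reads as the denominator, 39 members were highest in MDL-800 1, while 28 were lowest in control 3 and 24 in MDL-800 2. The same counts over all genes were not taken, so this pattern cannot be called particular to the members. Summed reads over the denominator behind the deposited values came to 1.06 to 1.28 in MDL-800 livers and to 0.995 to 1.25 in control livers, lowest in control 2. In control 2 the members' median log2 deviation from their own means was -0.14 as deposited, the lowest, and 0.08 with summed reads. On the summed-reads scale 14 members were highest and 1 was lowest there. Control 2 had the highest macrophage and Kupffer cell marker sum. That sum was 298 to 1150 FPKM in MDL-800 livers and 331 to 2783 FPKM in control livers, with 1 of 12 markers above 0 in log2 fold change and none at 0 FPKM throughout. Control 2 also had the highest erythroid marker sum, which was 126 to 179 FPKM in MDL-800 livers and 139 to 817 FPKM in control livers, with 2 of 5 tested markers above 0. The part of these cells in the members' values was not tested.

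**Figure D4:**
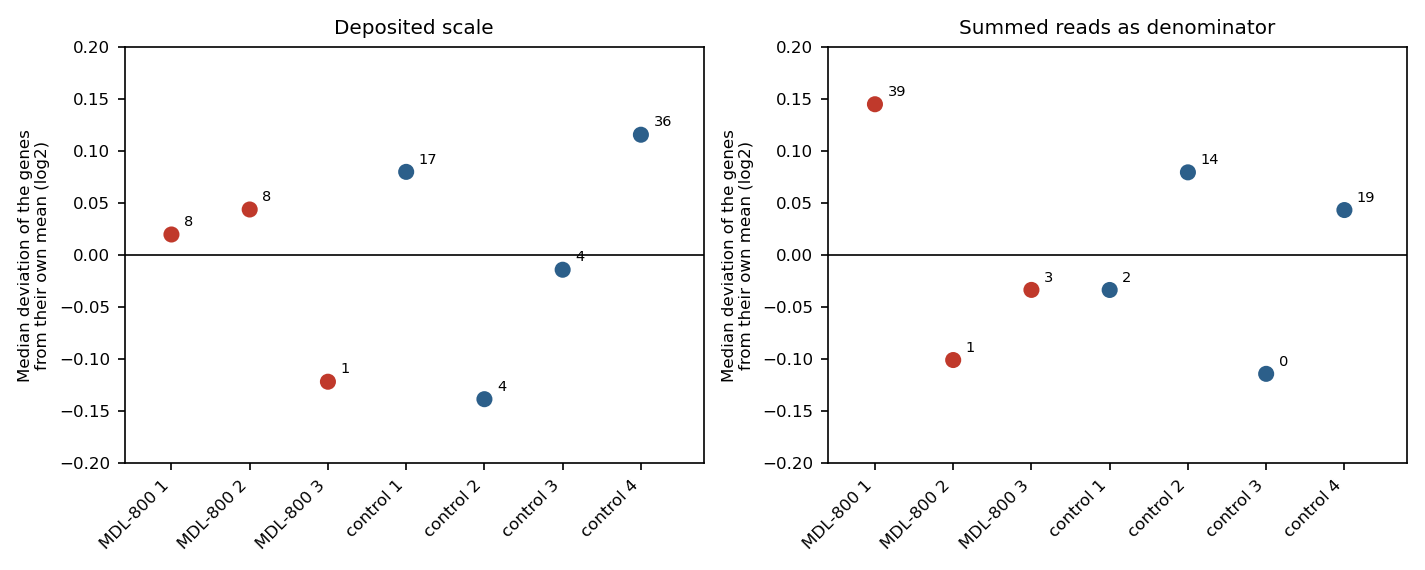
Median over the 78 tested ribosomal protein genes of the log2 deviation of each library from the gene's own mean, as deposited (left) and with summed reads as the denominator (right), for MDL-800 (red) and control (blue) libraries; the number beside a point counts the genes highest in that library. The library with most genes at their highest is control 4 on the left (36) and MDL-800 1 on the right (39).

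The paralogues split into expressed and nearly silent genes. Rps27l, a target of p53 and close relative of Rps27, had 263, 384 and 266 FPKM in MDL-800 livers and 359, 194, 238 and 271 FPKM in control livers, highest in the libraries with Y-linked reads. Its parent Rps27 had 193, 119.9 and 140.1 FPKM in MDL-800 livers and 207, 127, 155 and 191 FPKM in control livers, so the paralogue was listed above the parent in 7 of 7 libraries. With transcript lengths it stood above the parent in 3 of 7, at 430, 628 and 434 FPKM in MDL-800 livers and 588, 317, 390 and 444 FPKM in control livers, while Rps27 stood at 506, 314 and 367 FPKM in MDL-800 livers and 543, 334, 405 and 501 FPKM in control livers. Rpl7l1 had 21.9 to 24.0 FPKM in MDL-800 livers and 19.6 to 26.1 FPKM in control livers. Rpl7 had 183 to 198 FPKM in MDL-800 livers and 170.2 to 215 FPKM in control livers. Rpl22l1 had 16.1 to 19.7 FPKM in MDL-800 livers and 16.9 to 18.9 FPKM in control livers, below Rpl22 in every library.

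MDL-800 2 and control 1, the libraries with Y-linked reads, were also set against the other 5 libraries with the treatment in the model, a comparison chosen after seeing the data. Of the 78 members, 0 were called at an adjusted p under 0.05 by limma, against 2.42% of all genes. Nominally, 3 of 78 members had an unadjusted p under 0.05, a smaller share than the 22.7% of all genes (2582 of 11394). Above 0 lay 61 of 78 members, a larger share than the 61.1% of all genes (6964 of 11394). That direction is on the deposited scale. The members' median log2 deviation from their own means was 0.04 in MDL-800 2 and 0.08 in control 1 as deposited. With summed reads as the denominator it was -0.10 and -0.03. Rps27l had the smallest p, with a log2 difference of 0.58 (SE 0.16, limma adjusted p = 0.12).

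Rpl3l, the striated muscle form of Rpl3, had 0.0352, 0.118 and 0.139 FPKM in MDL-800 livers and 0, 0.125, 0 and 0 FPKM in control livers, on at most 4 reads. Rpl39l, known from testis, was at 0 in 6 libraries and at 0.124 FPKM, from 2 reads, in control 2. Rpl10l, a retrogene used in the male germ line, was at 0 in all 7 libraries. Their parents were abundant: Rpl3 had 117 to 124 FPKM in MDL-800 livers and 94.7 to 118 FPKM in control livers, and Rpl39 had 119 to 132 FPKM in MDL-800 livers and 101 to 136 FPKM in control livers. Rps4l, annotated as a transcribed processed pseudogene and so outside the rule, had 4.30, 20.2 and 11.5 FPKM in MDL-800 livers and 32.2, 12.5, 11.01 and 5.68 FPKM in control livers.

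Rps27 has a closer copy than Rps27l. Rps27rt, an intronless protein-coding copy outside the name rule (chr9:114982366-114982739, GRCm38), had 253, 483 and 259 FPKM in MDL-800 livers and 113, 187, 115 and 85.1 FPKM in control livers. It averaged 332 ± 131 FPKM (SD, n = 3) in MDL-800 livers and 125 ± 43.7 FPKM (SD, n = 4) in control livers. Its groups did not overlap, and the log2 fold change was 1.39 (SE 0.33, limma adjusted p = 0.95). Over the alternatives that value ran from 1.06 to 1.61 and the lowest adjusted p was 0.47. The coding sequences of Rps27 (chr3:90212725-90213615, minus strand) and Rps27rt (chr9:114982453-114982707, minus strand) are 255 bases long and differ at 0 bases in GRCm38, while that of Rps27l (chr9:66946175-66949357, plus strand) differs from them at 61 bases, an identity of 76.1%. The sequences show how closely reads of these genes must be told apart, with the bases of Rps27l that differ from Rps27 in capitals.
Rps27 and Rps27rt: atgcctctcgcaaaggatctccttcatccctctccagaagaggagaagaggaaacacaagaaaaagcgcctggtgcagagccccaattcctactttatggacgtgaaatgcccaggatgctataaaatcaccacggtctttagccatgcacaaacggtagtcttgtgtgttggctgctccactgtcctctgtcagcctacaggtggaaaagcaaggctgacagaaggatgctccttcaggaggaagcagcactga
Rps27l: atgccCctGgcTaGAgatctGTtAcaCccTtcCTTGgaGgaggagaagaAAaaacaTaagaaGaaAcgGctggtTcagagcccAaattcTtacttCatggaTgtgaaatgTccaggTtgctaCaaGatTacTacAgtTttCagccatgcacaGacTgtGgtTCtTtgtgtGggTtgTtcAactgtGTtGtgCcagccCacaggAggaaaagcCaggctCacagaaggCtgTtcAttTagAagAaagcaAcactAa

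Because Rps27 and Rps27rt share their whole coding sequence, their reads can be split between them only outside it, and each gene's own value is uncertain. Depth-scaled reads of both together were computed in the same way as for Rps27a. They were 296, 306 and 243 in MDL-800 livers and 258, 203, 204 and 231 in control livers, so the groups overlapped as deposited. Dividing each value by its library's ratio of summed reads to deposited denominator sets the groups apart. Every MDL-800 value is then above every control value. The share assigned to Rps27rt was 32.0%, 59.1% and 39.9% in MDL-800 livers and 16.3%, 34.5%, 21.01% and 13.8% in control livers. MDL-800 1 lay below control 2 on that share, so the shares overlapped, whatever the denominator.

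Named pseudogenes took a small part of the reads of most members. Of the 82 members, 59 have at least 1 pseudogene carrying their name, 287 in all, and these held 4.13% of the combined reads. Copies with other symbols were not counted. Among them is Gm8430, which held from 1.95% (MDL-800 3) to 20.4% (control 3) of its combined reads with Rps27a. For 68 members the named pseudogene part was under 5% or there was none. It exceeded the gene's own part for Rps10, Rpl17 and Rpl21. Rps10, a small subunit protein gene, had a mean of 0.917 FPKM, while its processed pseudogene Rps10-ps2 (chr16:20822145-20822640) had 160.5, 167 and 151 FPKM in MDL-800 livers and 168, 129, 152 and 186 FPKM in control livers. Pseudogenes held 97.6% of the combined Rps10 reads.

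Rpl17, a large subunit protein near the exit of the peptide tunnel, had a mean of 74.99 FPKM, and its pseudogenes held 83.3% of the combined reads, led by Rpl17-ps10 with a mean of 278 FPKM. For Rpl21 the share was 62.9%, led by Rpl21-ps15 with a mean of 119 FPKM. Rpl9-ps6, a pseudogene of Rpl9, lay higher in every MDL-800 library, at 38.6, 42.2 and 43.1 FPKM, against 33.4, 27.0, 29.4 and 27.8 FPKM in control livers (log2 fold change 0.48, SE 0.12, limma adjusted p = 0.95). Rpl21-ps8 lay lower in every MDL-800 library, at 13.1, 13.7 and 13.9 FPKM, against 19.9, 16.7, 23.6 and 17.9 FPKM in control livers (log2 fold change -0.48, SE 0.14, adjusted p = 0.95). Adding the reads of all named pseudogenes to their members left 0 members called and the median at -0.04.

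Exons shared with other annotated genes were counted on each strand. On the same strand, annotated genes that read through them on the same strand, and were listed at 0 in all 7 libraries, covered 47.0% of the exon bases of Rpl24 and were among the genes covering 35.4% of those of Rpl13a and 20.6% of those of Rps10. These were Gm28037 for Rpl24, Gm45713 for Rpl13a and RPS10-NUDT3 for Rps10. On the opposite strand, which this chemistry does not tell apart, the largest overlaps were 66.2% of the exon bases of Rpl35 and 59.7% of those of Rpl23a, large subunit protein genes that averaged 106 and 194 FPKM. Rpl24, a large subunit protein gene at the bridge between subunits, had 1.24, 0.9997 and 1.49 FPKM in MDL-800 livers and 1.20, 0.948, 1.03 and 1.78 FPKM in control livers, on 15 to 27 reads. The sources used here do not give how reads lying in more than 1 gene were counted, and its part in these low values was not tested. Across all members a median of 34.8% of 50-base windows occurred in another gene, with 22 members over 50%.

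**Figure D5:**
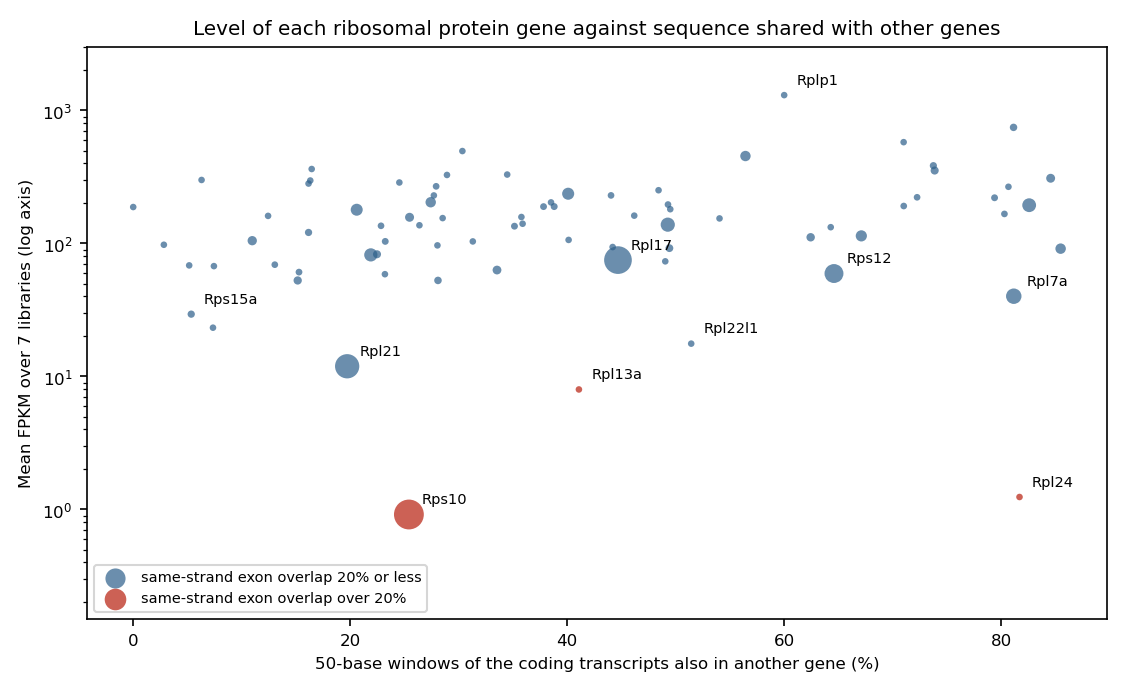
Mean FPKM over the 7 libraries (log axis) of each ribosomal protein gene against the percentage of 50-base windows of its coding transcripts that also occur in another gene; point area grows with the share of combined reads held by its named pseudogenes, and red marks same-strand exon overlap of over 20% with other genes; genes under 0.5 FPKM on average are not drawn. The lowest genes drawn, Rps10, Rpl24, Rpl13a and Rpl21, are either red or have large points, while many genes with most windows shared stand above 100 FPKM.

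Ribosomal protein genes often hold small nucleolar RNA genes, whose products guide the modification of ribosomal RNA. Within the limits of 29 of the 82 members (35.4%) lay 56 such genes, against 275 of 10096 tested protein-coding genes (2.72%).

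The start regions of the members were searched for pyrimidine runs. In the RefSeq promoter table for GRCm38.p6, 62 of the 82 members had an entry. Within 50 bases either side of the listed start, 50 of 62 members (80.6%) had, on the gene's own strand, a C followed by at least 7 further C or T, as did 28.7% of all 27025 entries. A C at the listed start itself with at least 4 C or T after it was found in 12 members (19.4%), against 2.49% of all. The letters CCGGAAG on either strand, in the whole window of 250 bases before to 50 after the start, were in 24 members (38.7%), against 9.12% of all. TATAAA was in 6 members (9.68%), against 14.2%, and AAGATGG in 9 members (14.5%), against 6.48%. These matches may overlap 1 another and describe letters only.

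The sequences below show a pyrimidine run in capitals, from 40 bases before the listed start to 25 bases from it, in members with the smallest p whose run falls in this window and in the 4 highest other members with a C at the start and at least 4 C or T after it. Rpl38 is at chr11:114668540-114668604 (plus), Rps21 at chr2:180257339-180257403 (plus), Rpl22 at chr4:152325686-152325750 (plus), Rpl7a at chr2:26910767-26910831 (plus) and Rpl13a at chr7:45128721-45128785 (minus). Rps6, whose protein is phosphorylated by S6 kinases, is at chr4:86857343-86857407 (minus), Rps18 at chr17:33955641-33955705 (minus), Rps27 at chr3:90213624-90213688 (minus) and Rpl28 at chr7:4792925-4792989 (plus).
Rpl38: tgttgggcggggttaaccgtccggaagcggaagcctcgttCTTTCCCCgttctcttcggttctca
Rps21: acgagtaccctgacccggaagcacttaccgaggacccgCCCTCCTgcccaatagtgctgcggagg
Rpl22: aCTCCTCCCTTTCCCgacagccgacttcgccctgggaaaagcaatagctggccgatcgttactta
Rpl7a: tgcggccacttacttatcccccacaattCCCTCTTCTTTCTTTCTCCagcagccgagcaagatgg
Rpl13a: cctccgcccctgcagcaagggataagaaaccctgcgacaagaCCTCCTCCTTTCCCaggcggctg
Rps6: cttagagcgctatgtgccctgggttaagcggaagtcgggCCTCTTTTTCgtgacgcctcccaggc
Rps18: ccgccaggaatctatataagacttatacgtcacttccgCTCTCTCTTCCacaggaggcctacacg
Rps27: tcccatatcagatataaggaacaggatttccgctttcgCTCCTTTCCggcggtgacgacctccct
Rpl28: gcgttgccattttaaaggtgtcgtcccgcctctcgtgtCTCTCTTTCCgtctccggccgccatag
The marked run begins at the listed start in Rpl38, 2 bases before it in Rps21, Rps18, Rps27 and Rpl28, 1 base before it in Rps6, 12 bases before it in Rpl7a and 39 bases before it in Rpl22, and after it in Rpl13a. In Rps21 it is 7 bases long, shorter than the run counted above.

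The genes that work with the ribosome gave 0 calls as well. Among 36 translation initiation factors the median log2 fold change was 0.08 and 23 lay above 0. Eif2s3x, a subunit of the factor that brings the initiator tRNA, had 23.2, 17.6 and 25.7 FPKM in MDL-800 livers and 12.3, 17.0, 15.6 and 14.2 FPKM in control livers (log2 fold change 0.55, SE 0.17, limma adjusted p = 0.95). Eif4b, which stimulates the helicase eIF4A and is itself an mRNA of the terminal oligopyrimidine class, had 79.98, 93.5 and 78.7 FPKM in MDL-800 livers and 77.4, 57.0, 68.6 and 58.5 FPKM in control livers (log2 fold change 0.36, SE 0.15, adjusted p = 0.95). On the deposited scale the groups did not overlap for either gene. With summed reads as the denominator those of Eif2s3x overlap and those of Eif4b stay apart.

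Medians were 0.08 for 6 elongation factors (4 above 0) and 0.04 for 13 other mRNAs of the terminal oligopyrimidine class (7 above 0). They were 0.00 for 19 RNA polymerase I and ribosomal DNA transcription genes (10 above 0) and -0.02 for 42 ribosome biogenesis factors (19 above 0). For 16 genes of mTORC1 and of ribosomal protein mRNA control the median was 0.03, with 10 above 0. Tsc1, an inhibitor of mTORC1 signalling, had 2.47, 4.30 and 3.22 FPKM in MDL-800 livers and 2.87, 2.01, 1.92 and 1.96 FPKM in control livers (log2 fold change 0.43, SE 0.18, adjusted p = 0.95, and 0.27 without MDL-800 2). Myc, a transcription factor that drives ribosome production, had 1.58, 0.545 and 2.16 FPKM in MDL-800 livers and 0.584, 5.13, 2.08 and 3.02 FPKM in control livers (log2 fold change -0.51, SE 0.47, adjusted p = 0.95), with -0.21 without MDL-800 2 or control 2 and -0.86 without control 1. Mtor, the kinase itself, had 5.39, 5.04 and 5.25 FPKM in MDL-800 livers and 5.07, 3.98, 3.71 and 4.99 FPKM in control livers (log2 fold change 0.20, SE 0.12, adjusted p = 0.95). The 77 mitochondrial ribosomal protein genes had a median of 0.04 and 50 above 0, and 61 tested pseudogenes of ribosomal protein genes a median of -0.09 and 20 above 0.

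Of 6 ribosome genes whose symbols fall outside the name rule, among them Rpsa, Fau, Rack1, Rpl36al and Rps27rt, 5 were tested and 0 called. Rpsa, a small subunit protein that also serves as a laminin receptor, had 181, 181 and 163 FPKM in MDL-800 livers and 209, 180.0, 212 and 213 FPKM in control livers (log2 fold change -0.21, SE 0.13, adjusted p = 0.95).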

How the data were processed

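RNA of mouse liver was sequenced in 7 libraries, 3 labelled MDL-800 and 4 labelled control. Tissue was lysed directly, cDNA came from a SMARTer low-input kit and was sonicated, and adapters were added with NEBNext reagents, per the labels' protocols. This chemistry does not mark strand. The deposited values are FPKM, 1 row per gene; the tools and build named for the authors' processing are TopHat2 2.0.14, Cufflinks 2.2.1, Bowtie2 2.1.0 and mm9, per the submitters' processing notes. The coordinates are GRCm38 nonetheless: 53756 of 54409 identifiers shared with GENCODE M21 have its chromosome and start. The sources used here do not give the counting tool. In each library every FPKM times its gene's length was a multiple of 1 value (100% within 0.01), which gave whole reads.

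Log2(FPKM + 1) was tested with limma 3.58.1 in R 4.3.3 (trend, two-sided) over the 11394 genes averaging 1 FPKM or more, adjusted by Benjamini-Hochberg at a threshold of 0.05. Fold changes on this scale understate changes of low genes. The procedure was tested on simulated data. The members and lists were chosen with earlier results of these data known. Named were the 8 members with the highest mean, the 5 with the smallest p in each direction, the extremes of variation (3 each way), the stalk genes, paralogue pairs, members under 1 FPKM and Rps27a, and up to 3 genes of a related list. Some genes that this rule takes are not reported here. Rpl17, Rpl24, Rps24, Rps6, Rps18, Rpl28, Gm8430 and the pseudogenes Rps10-ps2, Rpl17-ps10 and Rpl21-ps15 were chosen after their values were seen. Shared windows, exon overlap and snoRNA genes came from GENCODE M21, promoters from RefSeq. Figures used matplotlib 3.10.9 with Python 3.11.15. Alternatives were another pseudocount, other filters and scalings, voom on recovered reads, a replicate block, array weights, libraries left out and a term for Y-linked reads. Adding pseudogene reads, the length of coding transcripts and the comparison by Y-linked reads were chosen after seeing the data.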

Additional observations from a re-analysis of the deposited data

Results flagged for a closer look

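In the control group, which has 4 libraries, 7 of 63 genes examined had 1 library far from the other 3, where chance flags about 1 in 20 groups. Control 2 was the library set apart for 5 of them. The check used the deposited FPKM. Summed reads over the denominator of those values came to 0.995 in control 2 and to 1.22 to 1.25 in the other controls. The check was not repeated with summed reads, so how many flags remain on that scale was not counted. Rps15 was at 435 FPKM in control 2, below 511 to 525 FPKM in the other controls. Rpsa was at 180.0 FPKM in control 2, below 209 to 213 FPKM in the others, and Rpl17-ps5 at 16.8 FPKM, below 20.9 to 21.7 FPKM. Dividing each value by its library's ratio puts control 2 above the other controls for Rps15 and Rpsa. For Rpl17-ps5 control 2 stays lowest, but close to the others. On that scale control 2 is not far from the other controls for any of these genes. Rpl3l and Rpl39l were at 0.125 and 0.124 FPKM in control 2 and at 0 in the other controls, on 4 reads or fewer. A single value above 0 beside 3 at 0 is flagged whatever its size. Control 1 was set apart for Fbl, the methyltransferase of box C/D small nucleolar ribonucleoproteins, at 9.22 FPKM against 10.6 to 10.9 FPKM in the others. It was also set apart for Tsc1, an inhibitor of mTORC1 signalling, at 2.87 FPKM against 1.92 to 2.01 FPKM.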

How the results depend on the processing

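No member was called at an adjusted p under 0.05 under any of 19 alternatives, and the alternative medians and shares moved by less than the spread between libraries (the share cannot change with a library's denominator). The median log2 fold change of the members ran from -0.10 without control 2 to 0.01 without MDL-800 3. It was -0.03 with quantile normalization, -0.05 with median scaling, -0.08 with array weights and 0.00 with summed reads or voom. In the libraries without Y-linked reads it was -0.02 (29 members above 0), and -0.05 with a term for them. The pooled SD of library medians was 0.14, so the sign of the median is not fixed by these data. The difference in share of FPKM, MDL-800 minus control, was 0.09 percentage points and ran from -0.05 without MDL-800 1 to 0.23 without MDL-800 2, with a pooled SD of 0.25. With the replicate number as a block, the median was 0.00, 40 of 78 members lay above 0 and 0 were called. That block leaves control 4 without a partner, so its fold changes equal those without control 4. The numbers do not pair the samples: deviations of same-numbered libraries correlated at -0.59, -0.55 and 0.06, and MDL-800 2 went with control 1 (0.77). Fold changes of 40 genes were followed over the alternatives, and of these only Rplp1 changed sign, to 0.055, with quantile normalization. The cause was not tested. Other named genes, among them Rps3a1, Rps15, Rpl4 and Rpl19, were not followed. Some members did change sign, since 28 of 78 lay above 0 in the main fit and 39 with summed reads. Depth limits Rpl24 (15 to 27 reads), Rpl3l and Rpl39l.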

Other observations

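Over the 7 libraries, the genes whose log2 values followed Rps27a most closely by Pearson correlation were H2-Q7 and H2-K1, class I histocompatibility genes, and Entpd2, an ectonucleotidase. H2-Q7 had 23.1, 15.9 and 22.6 FPKM in MDL-800 livers and 23.9, 15.2, 13.98 and 25.6 FPKM in control livers, so the libraries low for Rps27a were low for it too. With 7 libraries and 11394 genes searched, such likeness is a description only.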
